A study of Mus musculus with 9 samples.

Results

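The lysosome and autophagy genes described here were 39 genes chosen by name, 16 of them hydrolases and other proteins of the lysosomal lumen, 8 genes of the lysosomal membrane and its proton pump, and 15 autophagy genes and their regulators. The 16 are called hydrolases for short below, although Psap and Npc2 among them are not enzymes. All 39 were found by their symbol among 26345 named gene entries with a known transcript, and each had a single such entry. Whole liver was sequenced from 3 pair-fed mice (PF) kept on an isocaloric liquid control diet, 3 alcohol-fed mice (AF) kept on the Lieber-DeCarli liquid diet, and 3 mice on that alcohol diet that also received intraperitoneal MNA at 50 mg/kg (AF with MNA). The labels do not spell out MNA and give no vehicle injection for PF or AF. All groups were labelled as 8 weeks old and fed for 5 weeks, no group carried a genetic change, and the methods state male C57BL/6J mice fasted before tissue was taken for PF and AF. The strain label reads C57BL/6 for PF and AF but C57BL/7, C57BL/8 and C57BL/9 for the 3 AF with MNA libraries.

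Lysosomes are acidic organelles in which hydrolases break down proteins, glycolipids, glycogen and lipids. A proton pump, the V-ATPase, keeps the lumen acidic, and heavily glycosylated membrane proteins line it. Macroautophagy wraps cytoplasm in a double membrane whose growth depends on the ULK1 kinase complex, a Beclin 1 lipid kinase complex and the lipid-conjugated LC3 and GABARAP proteins, and the finished vesicle fuses with a lysosome. The transcription factors TFEB and TFE3 are known to act on many lysosomal genes. In the liver this route turns over mitochondria, lipid droplets and protein aggregates.

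The expression unit was FPKM, a fragment number scaled for transcript length and library size, so levels can be compared between genes. Each log2 FC given is a ratio of 2 group means of FPKM on the log2 scale, whereas p-values came from limma on log2(FPKM + 1), adjusted by Benjamini-Hochberg over all tested gene entries. A gene is said to have risen or fallen, or to be upregulated or downregulated, where the unadjusted p was under 0.05. The study's methods state this level for lncRNAs analysed with Ballgown, together with a log2 FC beyond 1 in either direction. Both limits, applied here to the limma fit of genes, are called the threshold of the methods. The labels do not say whether the 3 libraries of a group are separate cages or dates, so p-values measure only the spread between these libraries. Library sizes ran from 57800660 to 82179248 reads. The summed FPKM of transcripts inside introns was 9433 in AF replicate 3 and 8934 in AF with MNA replicate 1 and lay between 2477 and 4937 in the other 7 libraries, and AF with MNA was also compared with AF without both of these libraries, an alternative chosen after seeing the data. Hepatocyte markers, mostly Alb, summed to between 13840 and 20744 FPKM in every library of this liver series.

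Averaged over the 9 libraries, Lamp1, a main glycoprotein of the lysosomal membrane, stood highest of the 39 at 159 FPKM. Next in this average came the cysteine proteases Ctsb at 129 FPKM and Ctsl at 121 FPKM and Psap, the precursor of the saposins that help break down sphingolipids, at 119 FPKM. Gabarapl1 at 57.0 FPKM and the autophagy receptor Sqstm1 at 56.0 FPKM led the autophagy genes, and by group mean Sqstm1 was the higher of these in PF and AF and Gabarapl1 in AF with MNA. The 5 proton pump subunits lay lower, from 3.28 FPKM for Atp6v1h to 24.5 FPKM for Atp6v0d1, and the transcription factors Tfe3 and Tfeb stood at the bottom at 2.17 and 1.99 FPKM.

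The first question was which of these genes differed between alcohol-fed and pair-fed livers. Most hydrolases had higher means in AF, whereas the membrane and pump genes and the autophagy genes lay on both sides of PF. Of the 16 hydrolases, 5 rose and 0 fell, namely Hexa, Ctsl, Ctsz, Ctsa and Ctsd. Of all 12268 tested entries, 5.1% rose and 6.58% fell. With a library left out, the number of hydrolases that rose ran from 2 (without PF replicate 2 or PF replicate 3) to 7 (without PF replicate 1). The hydrolases had a median log2 FC of 0.30 against -0.03 over all tested entries, and 15 of 16 had the higher mean in AF, whereas 46.3% of all tested entries did. No member had an adjusted p under 0.05, a threshold that 40 entries or 0.326% passed.

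Hexa encodes the alpha subunit of the beta-hexosaminidase that trims the ganglioside GM2, and it lies on the plus strand of chromosome 9 between 59539540 and 59565109 (GRCm38). It was at 16.0, 15.7 and 14.4 FPKM in PF, at 28.7, 26.2 and 22.5 FPKM in AF, and at 25.7, 27.6 and 25.9 FPKM in AF with MNA. All 6 alcohol libraries thus lay above all 3 PF libraries. The mean was 15.4 ± 0.82 FPKM (SD, n = 3) in PF and 25.8 ± 3.14 FPKM in AF, a log2 FC of 0.75. On log2(FPKM + 1) the difference was 0.70 ± 0.14 (SE), with an unadjusted p under 0.05 and adjusted p = 0.124 (limma). The p stayed under 0.05 with each of the 6 libraries left out in turn.

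Ctsl encodes cathepsin L, an endopeptidase of the lysosome. It was at 98.5, 85.6 and 91.8 FPKM in PF, at 133, 172 and 134 FPKM in AF, and at 142, 113 and 115 FPKM in AF with MNA. AF replicate 2 was the highest library, and no alcohol library reached down into the PF range. The log2 FC of AF against PF was 0.67, with an unadjusted p under 0.05 and adjusted p = 0.206 (limma), and the p stayed under 0.05 with each library left out.

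Ctsz, a carboxypeptidase known as cathepsin Z, was at 33.8, 26.5 and 26.5 FPKM in PF, at 40.7, 38.9 and 39.8 FPKM in AF, and at 43.1, 39.6 and 42.0 FPKM in AF with MNA. Ctsa, the protective protein that stabilizes beta-galactosidase and neuraminidase, was at 18.3, 17.8 and 15.7 FPKM in PF, at 24.4, 20.9 and 21.7 FPKM in AF, and at 22.4, 20.97 and 20.2 FPKM in AF with MNA. Neither gene overlapped between PF and the alcohol libraries. The log2 FC of AF against PF was 0.46 for Ctsz (adjusted p = 0.314, limma) and 0.37 for Ctsa (adjusted p = 0.373, limma). The unadjusted p of Ctsz was above 0.05 without PF replicate 2 or 3, and that of Ctsa without PF replicate 2, PF replicate 3 or AF replicate 1.

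Ctsd, the aspartic protease cathepsin D, was at 23.4, 17.8 and 22.7 FPKM in PF, at 36.5, 24.4 and 31.8 FPKM in AF, and at 22.1, 40.4 and 36.6 FPKM in AF with MNA. AF lay above PF, while AF with MNA replicate 1 lay within the PF range. The log2 FC of AF against PF was 0.54 (adjusted p = 0.39, limma), and the unadjusted p, under 0.05 with all 6 libraries, was above it without PF replicate 2, PF replicate 3, AF replicate 1 or AF replicate 3, with all 9 libraries in the fit, and in an unmoderated fit with a library-size covariate. The covariate was, per library, the sum of log2(FPKM + 1) over nonzero values below their upper quartile, and not the read number. The table merges Ctsd with the coding genes Ifitm10 and Gm49369, so its value is that of the merged entry.

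**Figure D1:**
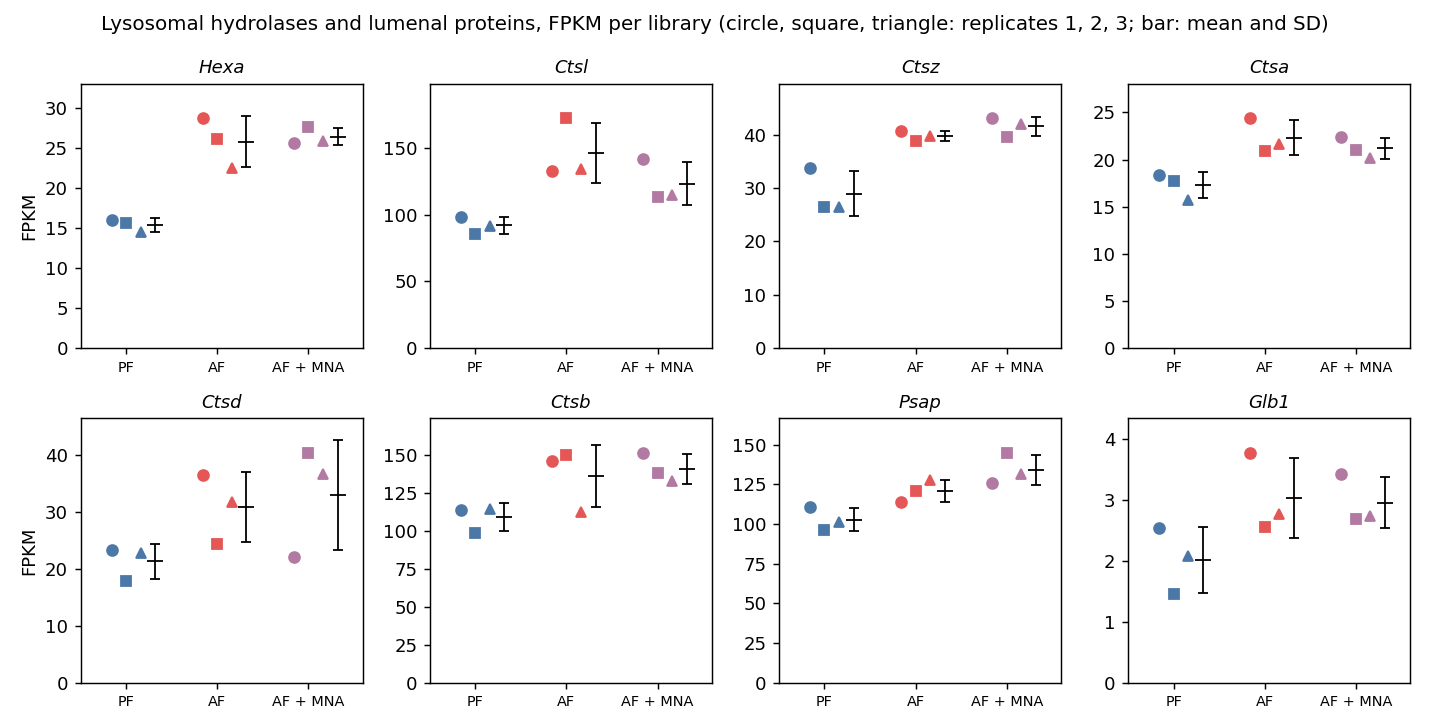
FPKM of 8 lysosomal hydrolases and lumenal proteins (y axis, from 0) in PF, AF and AF with MNA (x axis). Each point is a library, marked by replicate, and the black bar is the group mean with its SD. Hexa ran from 14.4 to 16.0 FPKM in PF and from 22.5 to 28.7 FPKM in the 6 alcohol libraries, and Ctsd of AF with MNA replicate 1 sat at 22.1 FPKM, within the PF range.

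Psap and Glb1 were also above PF in all 6 alcohol libraries without passing the test in AF. Psap was at 111, 96.15 and 101 FPKM in PF, at 114, 121 and 128 FPKM in AF, and at 126, 145 and 131 FPKM in AF with MNA. Glb1, the beta-galactosidase that removes terminal galactose, was at 2.54, 1.46 and 2.08 FPKM in PF, at 3.78, 2.56 and 2.77 FPKM in AF, and at 3.44, 2.69 and 2.74 FPKM in AF with MNA, and its entry is merged with Tmppe. The adjusted p for AF was 0.562 for Psap and 0.456 for Glb1 (limma). With Hexa, Ctsl, Ctsz and Ctsa this gives 6 members with all alcohol libraries above all PF libraries. Of 12001 tested entries, 445 or 3.71% lay above in this way. No member had all alcohol libraries below all PF libraries, and the share of all entries that did was not counted.

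Between AF and PF alone, 7 of 16 hydrolases had groups that did not overlap, all of them higher in AF, compared with 8.18% of all tested entries. Ctsb, cathepsin B, was at 114, 98.8 and 115 FPKM in PF and at 146, 150.04 and 113 FPKM in AF, so that AF replicate 3 fell among the PF libraries (adjusted p = 0.537, limma). Gusb, the beta-glucuronidase, was at 4.90, 4.34 and 5.18 FPKM in PF and at 6.39, 6.14 and 5.01 FPKM in AF (adjusted p = 0.562, limma). In both genes AF replicate 3 was the low alcohol library. The remaining 7 hydrolases, Ctsc, Ctsh, Lipa, Gaa, Neu1, Tpp1 and Npc2, had log2 FCs from -0.06 for Lipa, the acid lipase that frees cholesterol and fatty acids, to 0.46 for Ctsc, the dipeptidyl peptidase cathepsin C, with no p under 0.05.

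The promoter windows of the hydrolases are shown for the genes that rose, with Lamp1 as the member holding the most copies of the motif searched. The motif was CACGTG, the palindromic E-box that TFEB and TFE3 are known to bind and which reads alike on both strands. RefSeq windows (GRCm38.p6) from 250 bases before to 50 bases after the RefSeq start of the gene were given for 31 members, and none was given for Ctsh, Npc1, Becn1, Atp6v1b2, Atg12, Ctsb, Map1lc3a and Atp6v1h. Below are the 250 bases before that start, 5′ to 3′ on the strand of the gene, with each CACGTG in capitals. For Ctsa, which had 2 windows, the downstream window is shown, and the upstream one holds no CACGTG. The RefSeq start coincides with the outermost GENCODE M21 start of the gene for Hexa, Ctsz and Lamp1, but lies inside the GENCODE gene for Ctsd, Ctsl and the window of Ctsa shown, by 211, 370 and 900 bases, so that the windows of Ctsl and Ctsa lie wholly within the annotated gene.
Hexa (plus strand, chr9:59539290-59539539): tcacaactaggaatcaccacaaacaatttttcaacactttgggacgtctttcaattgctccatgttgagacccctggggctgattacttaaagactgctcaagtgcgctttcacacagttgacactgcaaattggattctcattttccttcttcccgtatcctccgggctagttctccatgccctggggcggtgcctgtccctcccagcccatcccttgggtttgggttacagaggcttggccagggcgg
Ctsz (minus strand, chr2:174439040-174439289): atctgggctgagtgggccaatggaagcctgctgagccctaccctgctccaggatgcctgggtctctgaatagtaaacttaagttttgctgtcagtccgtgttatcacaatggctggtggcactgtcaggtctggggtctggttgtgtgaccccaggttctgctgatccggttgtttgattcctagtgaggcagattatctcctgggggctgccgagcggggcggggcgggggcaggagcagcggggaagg
Ctsl (minus strand, chr13:64370521-64370770): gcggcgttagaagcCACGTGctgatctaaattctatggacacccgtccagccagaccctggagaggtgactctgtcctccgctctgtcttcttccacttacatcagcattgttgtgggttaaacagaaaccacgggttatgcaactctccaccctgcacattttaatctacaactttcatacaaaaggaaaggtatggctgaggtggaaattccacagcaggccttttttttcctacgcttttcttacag
Ctsa (plus strand, chr2:164833523-164833772): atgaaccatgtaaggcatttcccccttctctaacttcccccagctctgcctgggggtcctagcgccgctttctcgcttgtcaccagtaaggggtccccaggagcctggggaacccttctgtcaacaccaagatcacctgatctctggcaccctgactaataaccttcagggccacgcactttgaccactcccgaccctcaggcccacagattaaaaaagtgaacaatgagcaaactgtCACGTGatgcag
Ctsd (minus strand, chr7:142387828-142388077): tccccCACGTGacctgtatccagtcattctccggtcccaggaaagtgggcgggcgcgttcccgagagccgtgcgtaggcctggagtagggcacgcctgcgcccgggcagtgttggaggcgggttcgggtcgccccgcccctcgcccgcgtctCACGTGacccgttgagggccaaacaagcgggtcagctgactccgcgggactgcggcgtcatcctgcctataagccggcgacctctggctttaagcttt
Lamp1 (plus strand, chr8:13158911-13159160): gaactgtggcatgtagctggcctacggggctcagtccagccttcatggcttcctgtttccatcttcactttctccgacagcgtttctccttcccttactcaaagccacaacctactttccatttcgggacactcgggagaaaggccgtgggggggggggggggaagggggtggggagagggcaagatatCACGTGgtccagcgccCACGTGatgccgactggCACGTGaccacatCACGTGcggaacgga
The window of Lamp1 holds 4 copies and those of Hexa and Ctsz hold none.

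Counting a gene where any of its windows held it, the hexamer occurred in 11 of 31 members (35.5%), compared with 8.09% of 27025 genes with a window and 12% of the 8290 such genes tested in AF against PF. By class it was in 5 of 14 hydrolases (Ctsa, Ctsd, Ctsl, Gaa and Glb1), in 3 of 5 membrane and pump genes (Lamp1, Atp6v0d1 and Atp6v1a) and in 3 of 12 autophagy genes (Atg3, Atg5 and Atg7). The extended form GTCACGTG, or CACGTGAC on the other strand, each of which contains the hexamer, was in 7 of 31 members (22.6%) beside 2.55% of all genes with a window and 4.9% of those tested in AF against PF. Measured against the GENCODE start, all copies of the hexamer lay inside the gene for 4 of the 11 members (Ctsa, Ctsl, Atg7 and Atp6v1a), 1 of 2 copies did for Ctsd, and none did for the other 6. Of the 11 members with the hexamer, 3 rose in AF (Ctsa, Ctsd and Ctsl, each with a copy inside the GENCODE gene). Of the 20 without it, 2 rose, where 5.1% of all tested entries did. The mean was higher in AF for 7 of the 11 and 15 of the 20, with median log2 FCs of 0.20 and 0.13. In AF with MNA against PF, 3 of the 11 and 7 of the 20 changed in either direction, with medians of 0.13 and 0.10. Of all tested entries, 14.5% changed there. Members with and without the hexamer were thus found among those that rose.

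**Figure D2:**
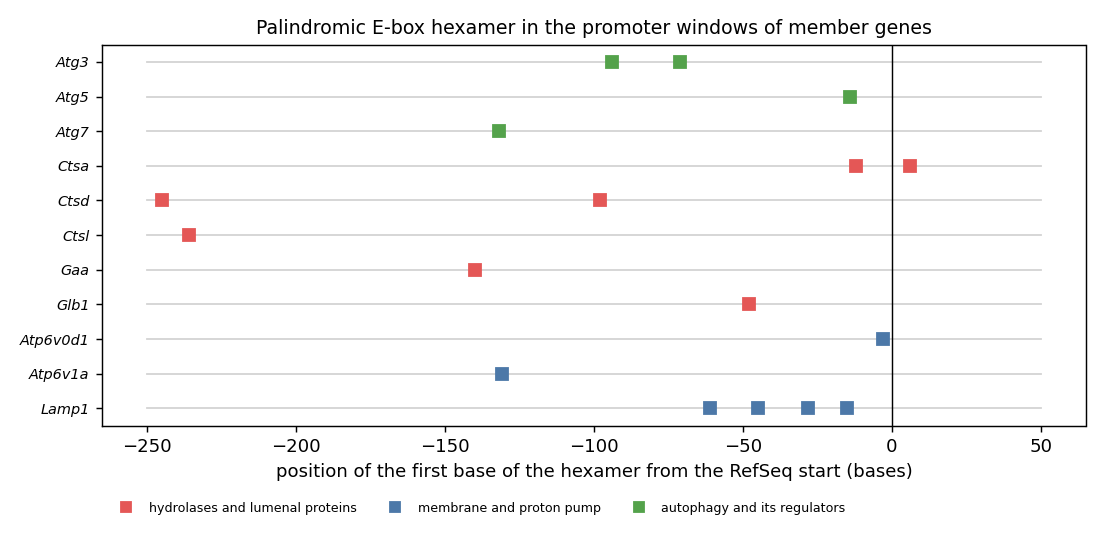
Position of each CACGTG hexamer (squares, first base) from the RefSeq start (x axis, in bases, the start being the line at 0) in the promoter windows of the 11 members that hold it (y axis), coloured by class. The 4 copies of Lamp1 lie between -61 and -15, and the copies of Ctsd lie at -245 and -98.

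None of the 8 membrane and proton pump genes rose or fell in AF, and none had groups that did not overlap. Their median log2 FC was -0.09, with a range from -0.40 for Lamp2 to 0.12 for Lamp1, and it was 0.04 without AF replicate 3. Lamp1 and Lamp2, the paired membrane glycoproteins, are singled out here after their values were seen. Lamp1 was at 158, 139 and 154 FPKM in PF and at 179, 167 and 144 FPKM in AF (adjusted p = 0.807, limma). In AF with MNA, Lamp1 was at 162, 167 and 162 FPKM, above every PF library, a pattern seen in 9.54% of all tested entries. It did not pass the test against PF there (adjusted p = 0.66, limma). Lamp2 was at 56.9, 55.6 and 37.5 FPKM in PF, at 39.8, 38.6 and 35.7 FPKM in AF, and at 39.1, 56.1 and 59.1 FPKM in AF with MNA. Its values lay between 35.7 and 39.8 FPKM in 5 libraries and between 55.6 and 59.1 FPKM in the other 4, a split that cuts across the groups, and the difference between AF and PF did not pass the test (adjusted p = 0.516, limma). The unadjusted p was under 0.05 without PF replicate 3 (log2 FC -0.57, adjusted p = 0.368, limma). The V-ATPase subunits Atp6v0a1, Atp6v0d1, Atp6v1a, Atp6v1b2 and Atp6v1h had log2 FCs from -0.36 to 0.09, with adjusted p-values from 0.646 to 0.959 (limma).

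Of the 15 autophagy genes, 1 rose and 0 fell in AF, beside 11.7% of all tested entries that changed in either direction. The class had a median log2 FC of 0.09. The gene that rose was Atg12, the ubiquitin-like protein that is joined to ATG5. It was at 1.75, 0.97 and 1.3 FPKM in PF, at 4.62, 2.69 and 6.16 FPKM in AF, and at 6.49, 1.27 and 1.53 FPKM in AF with MNA. All AF libraries lay above PF, but only replicate 1 of AF with MNA did. The log2 FC of AF against PF was 1.74, with an unadjusted p under 0.05 and adjusted p = 0.169 (limma), and Atg12 was the only member past the threshold of the study's methods, which 4.3% of all tested entries passed. The p stayed under 0.05 with each library left out. The highest Atg12 values were those of AF replicate 3 and AF with MNA replicate 1, which are also the libraries with the high signal inside introns. Between AF with MNA and AF, the log2 FC was -0.54 (adjusted p = 0.974, limma) and did not pass the test. The unadjusted p was under 0.05 without AF with MNA replicate 1 (log2 FC -1.68, adjusted p = 0.671, limma) and without both of these libraries (-1.38, adjusted p = 0.55), but not without AF replicate 3 alone (-0.24, adjusted p = 0.91).

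The ubiquitin-like proteins of the LC3 and GABARAP family, which are attached to the autophagic membrane, did not pass the test in AF. Map1lc3b was at 14.2, 19.6 and 15.8 FPKM in PF, at 20.7, 18.8 and 18.7 FPKM in AF, and at 16.6, 17.0 and 17.6 FPKM in AF with MNA (adjusted p = 0.604 for AF against PF, limma). Gabarap, in an entry merged with Ctdnep1, was at 23.6, 22.3 and 22.4 FPKM in PF, at 24.5, 18.8 and 24.6 FPKM in AF, and at 23.4, 23.8 and 24.8 FPKM in AF with MNA (adjusted p = 0.978 for AF against PF, limma). PF and AF overlapped in both genes. Map1lc3a had a log2 FC of -0.64 (adjusted p = 0.438, limma), with values given further on. Its unadjusted p was under 0.05 without PF replicate 2 (log2 FC -0.85, adjusted p = 0.333, limma). The same held with the replicate number as a block (adjusted p = 0.421). Without PF replicate 1 the log2 FC was -0.39 (adjusted p = 0.682).

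Tfeb was the only member with every AF library below every PF library, a pattern seen in 10.1% of all tested entries. It was at 2.13, 2.34 and 2.14 FPKM in PF, at 1.85, 0.99 and 1.95 FPKM in AF, and at 2.55, 2.26 and 1.73 FPKM in AF with MNA, and the difference between AF and PF did not pass the test (adjusted p = 0.538, limma). Tfe3 was at 2.20, 1.95 and 1.78 FPKM in PF, at 2.64, 1.24 and 2.27 FPKM in AF, and at 2.29, 2.74 and 2.45 FPKM in AF with MNA (adjusted p = 0.993, limma, for AF). Both factors were lowest in AF replicate 2. Sqstm1, the receptor p62 that links cargo to LC3, was named after its values were seen and was at 53.4, 34.5 and 45.5 FPKM in PF and at 57.5, 80.9 and 53.1 FPKM in AF. AF replicate 3 lay just inside the PF range (adjusted p = 0.46, limma). In AF with MNA, Sqstm1 was at 56.7, 56.4 and 66.6 FPKM, above every PF library, as was Tfe3. Neither passed the test against PF (adjusted p = 0.349 and 0.376, limma), and 9.54% of all tested entries lay above PF in this way.

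The second question was whether MNA given with alcohol changed these genes from alcohol alone. None of the 16 hydrolases and none of the 8 membrane and pump genes rose or fell between AF with MNA and AF with all 6 libraries. Lamp2 was higher in AF with MNA at an unadjusted p under 0.05 without AF with MNA replicate 1 (log2 FC 0.60, adjusted p = 0.644, limma) and without both libraries of high intron signal (0.56, adjusted p = 0.572). No member had an adjusted p under 0.05, as 6 entries or 0.0491% of 12214 did. Of the 15 autophagy genes, Map1lc3a and Gabarapl1 rose and Ulk1 fell, where 2.91% of all tested entries rose and 2.3% fell and 5.22% did either. Without overlap between the groups, Map1lc3a was higher and Wipi1 and Map1lc3b were lower, as were 5.53% and 4.58% of all tested entries. The median log2 FC was -0.01 in the hydrolases, -0.01 in the membrane and pump genes, -0.08 in the autophagy genes and 0.01 over all tested entries. For Hexa the log2 FC was 0.03 (adjusted p = 0.999, limma), and for Ctsl it was -0.25 (adjusted p = 0.97, limma).

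Map1lc3a, which encodes LC3A, was at 8.30, 4.36 and 6.20 FPKM in PF, at 3.97, 3.63 and 4.50 FPKM in AF, and at 8.95, 5.07 and 10.8 FPKM in AF with MNA. AF with MNA lay above AF, whereas it overlapped with PF. The log2 FC against AF was 1.04, with an unadjusted p under 0.05 and adjusted p = 0.94 (limma), which puts Map1lc3a past the threshold of the methods as did 1.98% of all tested entries. The unadjusted p stayed under 0.05 with each library left out in turn, but not with both libraries of high intron signal removed (log2 FC 1.06). It was also above 0.05 in the fit that both added the library-size covariate and dropped the moderation of the variances.

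Gabarapl1, the GABARAP-like protein of highest level here, was at 39.4, 33.9 and 49.2 FPKM in PF, at 43.4, 45.3 and 52.3 FPKM in AF, and at 93.4, 49.5 and 107 FPKM in AF with MNA. Replicates 1 and 3 of AF with MNA stood far above every other library, and replicate 2 lay within the AF range. The log2 FC against AF was 0.82, with an unadjusted p under 0.05 and adjusted p = 0.94 (limma). The unadjusted p was above 0.05 with any single library left out other than AF with MNA replicate 2, and also without both libraries of high intron signal (log2 FC 0.82) and in the unmoderated fit with the library-size covariate. Map1lc3a, like Gabarapl1, was lower in replicate 2 than in the other two libraries of AF with MNA.

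Ulk1, the kinase that starts autophagosome formation, was at 8.54, 9.19 and 10.49 FPKM in PF, at 13.2, 10.3 and 7.45 FPKM in AF, and at 8.16, 5.54 and 4.54 FPKM in AF with MNA. AF replicate 3 was below AF with MNA replicate 1, so the groups overlapped, while AF with MNA lay below all PF libraries. The log2 FC against AF was -0.76, with an unadjusted p under 0.05 and adjusted p = 0.94 (limma). The unadjusted p was above 0.05 without AF replicate 1, AF replicate 2, AF with MNA replicate 2 or AF with MNA replicate 3, and in the unmoderated fit with the library-size covariate.

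**Figure D3:**
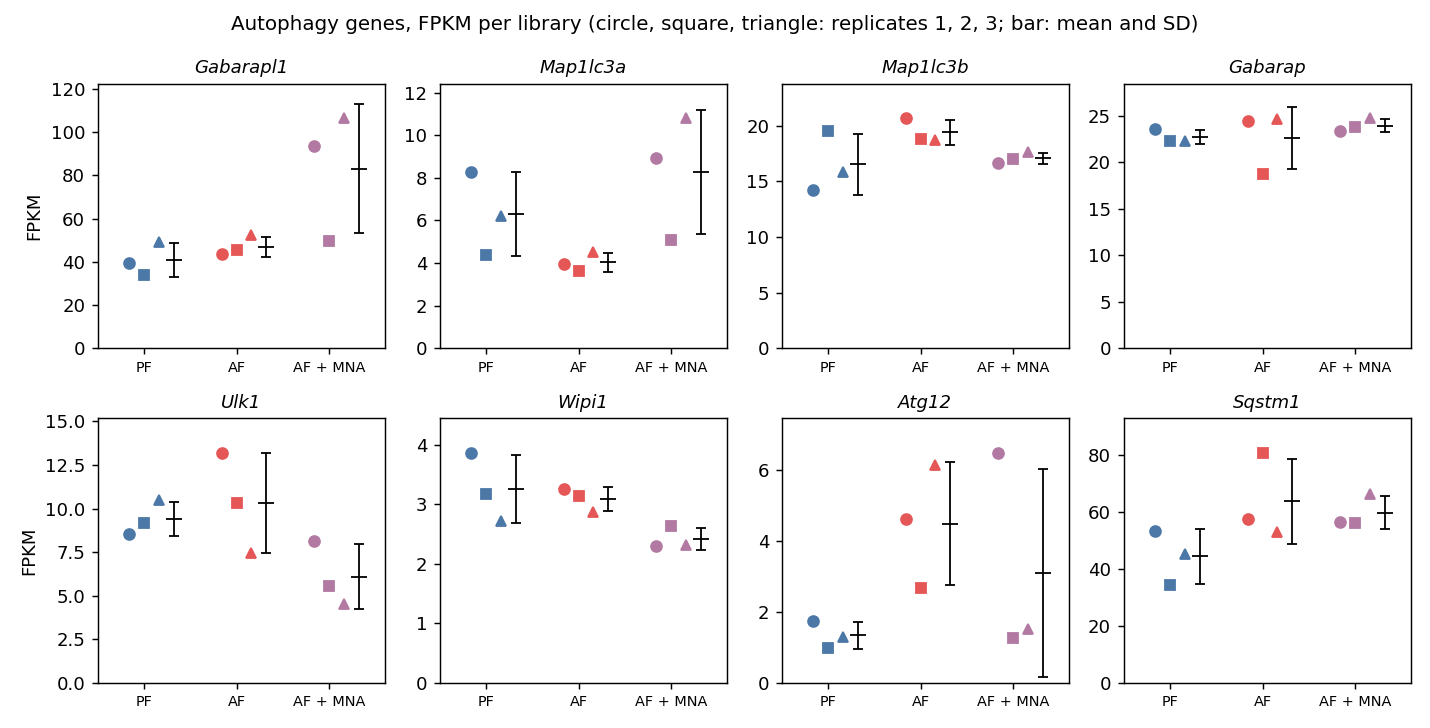
FPKM of 8 autophagy genes (y axis, from 0) in PF, AF and AF with MNA (x axis), with a point per library marked by replicate and the group mean and SD as a black bar. Gabarapl1 was at 93.4 and 107 FPKM in AF with MNA replicates 1 and 3 and at 49.5 FPKM in replicate 2, and Atg12 of AF with MNA was at 6.49 FPKM in replicate 1 and at 1.27 and 1.53 FPKM in the others.

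The third comparison set AF with MNA against PF. It shares the PF libraries with the first comparison and the AF with MNA libraries with the second, so the values stand side by side and are not independent. Of the 16 hydrolases, 8 rose and 0 fell, beside 6.52% and 7.94% of 12276 tested entries. The 8 that rose also did not overlap with PF, as did 9.54% of all tested entries, and 14.5% of entries changed in either direction. The median log2 FC was 0.29 in the hydrolases, against -0.02 over all tested entries. Hexa had a log2 FC of 0.78 (adjusted p = 0.0483, limma) and was the only member with an adjusted p under 0.05, as were 53 entries or 0.432% of those tested. That call was lost with each library left out, when the adjusted p lay between 0.0976 and 0.153, while the unadjusted p stayed under 0.05.

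Ctsz (log2 FC 0.52, adjusted p = 0.192, limma) also stayed under 0.05 with each library left out. Ctsl (0.42), Psap (0.38), Ctsb (0.37), Ctsa (0.30), Gusb (0.28) and Glb1 (0.54) also rose, with adjusted p-values from 0.271 to 0.342 (limma), and each lost the call without PF replicate 2 and without at least 1 other library. In AF with MNA, Ctsb was at 152, 138 and 133 FPKM and Gusb at 5.87, 5.73 and 5.92 FPKM, above the PF libraries given earlier. Ctsd had a log2 FC of 0.63 (adjusted p = 0.364, limma) and did not pass the test, with replicate 1 as the low library. PF replicate 2 was the lowest or equal lowest PF library for Ctsb, Ctsc, Ctsd, Ctsh, Ctsl, Ctsz, Lipa, Gaa, Glb1, Gusb and Psap. The median over the 16 hydrolases of the log2 ratio to the PF mean was 0.11, -0.14 and -0.01 in the PF libraries. It was 0.41, 0.28 and 0.33 in the AF libraries, and with MNA it was 0.25, 0.29 and 0.29.

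Of the membrane and pump genes, Npc1 alone fell in this comparison. Npc1, the transporter that exports cholesterol from the lysosome, was at 12.5, 13.9 and 15.7 FPKM in PF, at 12.9, 9.46 and 14.1 FPKM in AF, and at 12.3, 10.4 and 9.53 FPKM in AF with MNA, with a log2 FC of -0.38 (adjusted p = 0.316, limma). The call was lost without PF replicate 2, PF replicate 3, AF with MNA replicate 2 or AF with MNA replicate 3. It was also lost with all 9 libraries in the fit, with the replicate number as a block and in the unmoderated fit with the library-size covariate. Its partner Npc2, a lumenal cholesterol carrier, had a log2 FC of 0.16 (adjusted p = 0.637, limma).

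Of the autophagy genes, Gabarapl1 rose with a log2 FC of 1.03 (adjusted p = 0.274, limma) and was the only member past the threshold of the methods, as were 3.89% of tested entries. Ulk1 fell with a log2 FC of -0.63 (adjusted p = 0.287, limma) and Wipi1 with -0.43 (adjusted p = 0.342, limma). Wipi1, which binds the lipid made by the Beclin 1 complex, was at 3.86, 3.17 and 2.72 FPKM in PF, at 3.25, 3.14 and 2.86 FPKM in AF, and at 2.30, 2.63 and 2.32 FPKM in AF with MNA. All 3 AF with MNA libraries lay below every PF and AF library, and 11.9% of tested entries lay below PF in this way. The calls of these 3 genes were each lost without at least 4 of the 6 libraries in turn. In 8 alternative fits with no library left out, the unadjusted p was under 0.05 in 8 for Gabarapl1, 6 for Ulk1 and 2 for Wipi1. Atg3, Atg5, Atg7, Becn1 and Uvrag, which act in conjugation and in the lipid kinase complex, did not pass the test in any of the 3 comparisons.

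**Figure D4:**
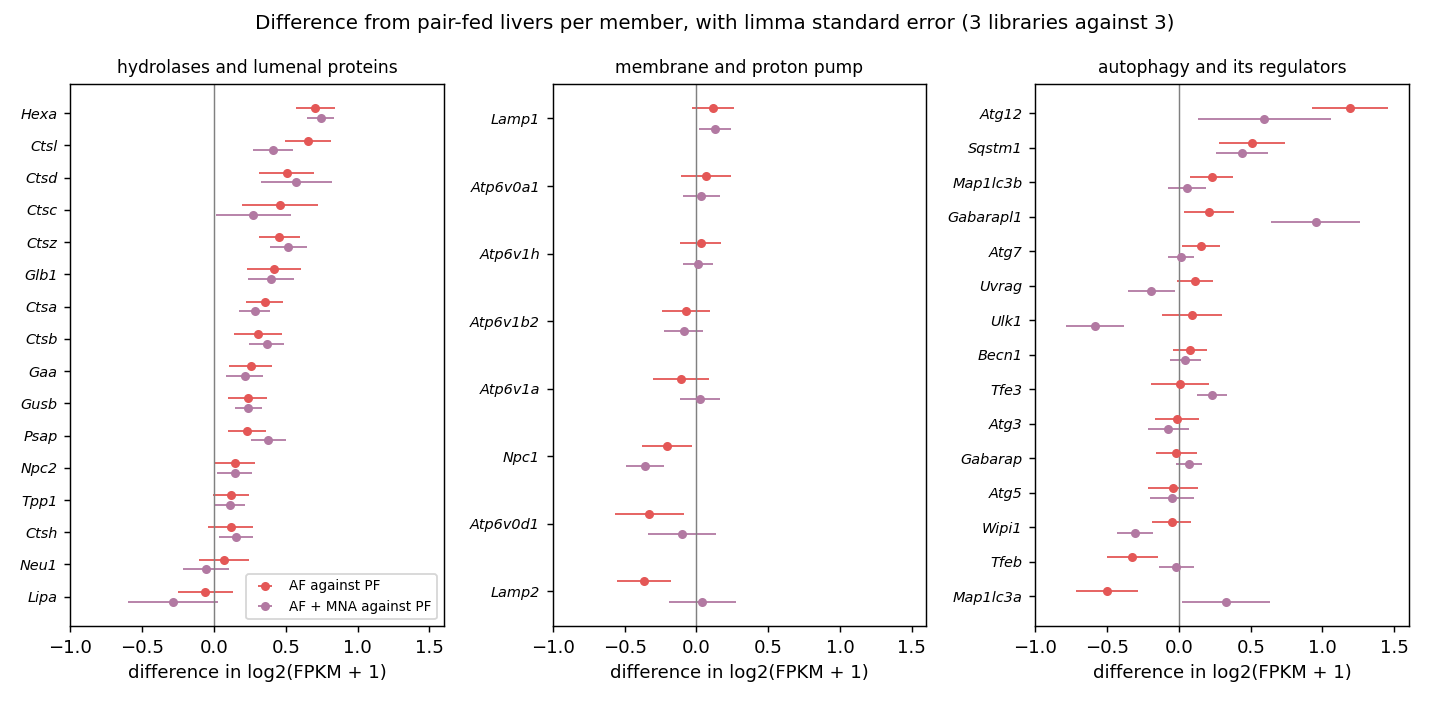
Difference from PF in log2(FPKM + 1) (x axis) for all 39 members (y axis) in 3 classes, for AF and for AF with MNA, with limma standard errors as bars. Points of the hydrolases lie to the right of 0 apart from Lipa and, in AF with MNA, Neu1, points of the membrane and pump genes lie on both sides, and Gabarapl1, Ulk1 and Map1lc3a differ in position between the alcohol groups.

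Wider lists of genes with the same roles that are not members were counted in the same fit. Of 32 further hydrolases and lumenal proteins tested, 4 rose and 1 fell in AF, beside 5.1% and 6.58% of all tested entries. Their median log2 FC was 0.25. In AF with MNA against PF, 7 rose and 0 fell, with a median of 0.17, beside 6.52% and 7.94% of all tested entries. Asah1, the acid ceramidase, had the lowest p of these in AF, with a mean of 7.38 FPKM against 4.11 FPKM in pair-fed livers (log2 FC 0.84, adjusted p = 0.141, limma), while Manba, the beta-mannosidase, fell (log2 FC -0.68, adjusted p = 0.273). Against PF, Grn (progranulin, log2 FC 0.62), Idua (0.82) and Lgmn (0.40) rose in AF with MNA (adjusted p = 0.147, 0.221 and 0.273, limma). Idua was low, with means of 0.93 FPKM in PF and 1.65 FPKM in AF with MNA. Of 32 further membrane, pump and sorting genes, 2 (6.25%) rose and 0 fell in AF, where 5.1% of all tested entries rose, among them the pump subunit Atp6v1d (log2 FC 0.52, adjusted p = 0.337, limma), and 0 changed in AF with MNA against PF.

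Of 40 further autophagy genes, 1 rose and 3 fell in AF, with 5.1% and 6.58% over all tested entries, including Ulk2 (log2 FC -0.52, adjusted p = 0.357, limma), a kinase related to Ulk1, and Stx17 (-0.46, adjusted p = 0.334), the syntaxin of autophagosome fusion. Ulk2 was at 9.35, 9.06 and 9.72 FPKM in PF, at 7.37, 4.92 and 7.27 FPKM in AF, and at 6.89, 6.58 and 7.02 FPKM in AF with MNA, so all alcohol libraries were below PF. In AF with MNA against PF, 0 of the 40 rose and 3 fell, beside 6.52% and 7.94% of all tested entries, and 10 of the 40 lay wholly below PF, as did 11.9% of all tested entries. The median log2 FC of the 40 was -0.11 in AF and -0.12 in AF with MNA against PF, whereas that of the 15 members was 0.09 and 0.05. Between AF with MNA and AF, 1 of the 40 rose and 2 fell, where 2.91% and 2.3% of all tested entries did. These were Gabarapl2 (log2 FC 0.63, adjusted p = 0.94, limma), another GABARAP-like gene, and Atg16l2 (-1.09, adjusted p = 0.893) and Atg2a (-0.38, adjusted p = 0.94). None of the further hydrolases or membrane genes changed in that comparison. No gene of the wider lists had an adjusted p under 0.05 in any comparison.

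**Figure D5:**
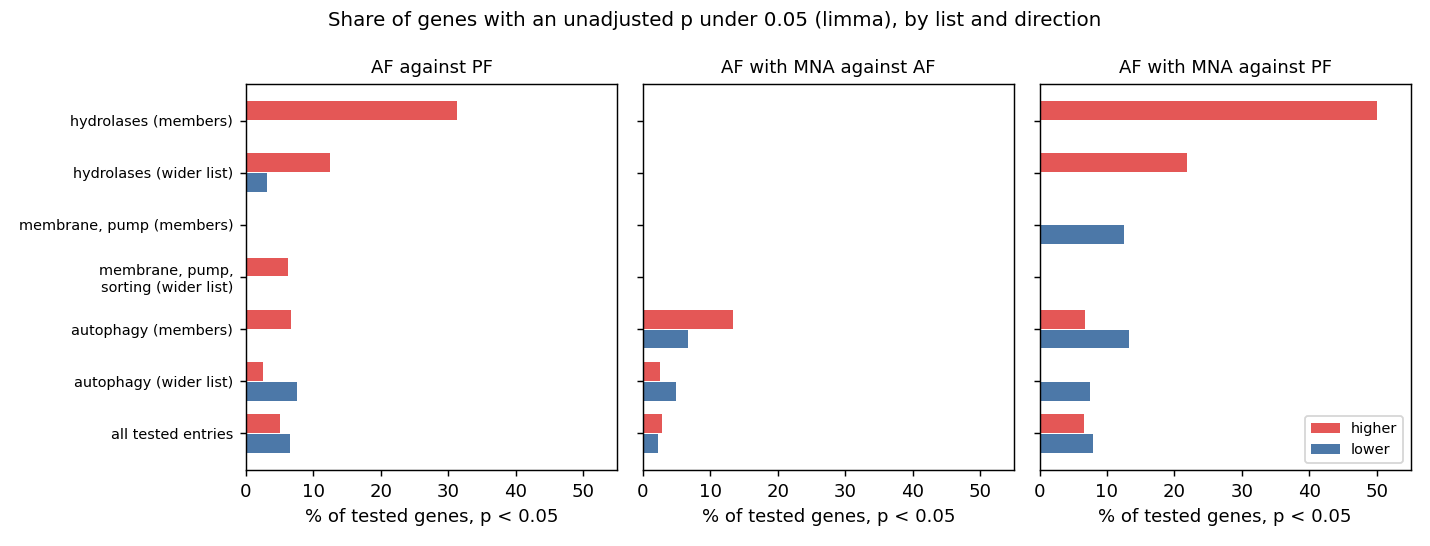
Share of tested genes (x axis, percent, from 0) with an unadjusted limma p under 0.05, higher in red and lower in blue, for the member classes, the wider lists and all tested entries, in each of the 3 comparisons. The longest bars are those of the 16 member hydrolases, 5 of which rose in AF and 8 in AF with MNA against PF, with 0 that fell.

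Macrophages and endothelial cells are rich in lysosomes, and their markers are therefore given beside the hydrolases. Of 12 macrophage markers 11 were in the table and summed to between 103 and 133 FPKM in PF, between 88.4 and 194 FPKM in AF and between 132 and 169 FPKM in AF with MNA, and none was at 0 in any library. Of these 11 markers, the scavenger receptor Marco rose in AF (log2 FC 1.25, adjusted p = 0.365, limma) and none fell, while 5 had the lower mean in AF. Among these, Vsig4 was below PF in every AF library (log2 FC -0.52, adjusted p = 0.429), and Clec4f and C1qc had log2 FCs of -0.64 and -0.85 (adjusted p = 0.471 and 0.615). In AF with MNA against PF, Marco (1.57, adjusted p = 0.152) and the lysozyme Lyz2 (1.29, adjusted p = 0.216) rose, both past the threshold of the methods. The 5 endothelial markers summed to between 19.7 and 24.3 FPKM in PF, 24.85 and 36.2 FPKM in AF, and 30.4 and 33.8 FPKM in AF with MNA, so these sums did not overlap between PF and the alcohol groups. Of these 5 markers, Pecam1 rose in AF (log2 FC 0.50, adjusted p = 0.372, limma), where 5.1% of all tested entries rose. In AF with MNA against PF, Clec4g, Kdr and Pecam1 rose (adjusted p = 0.121, 0.268 and 0.218, limma), beside 6.52% of all tested entries. All 5 had the higher mean in both alcohol groups, but Clec4g in AF replicate 3, at 5.07 FPKM, lay below every PF library. The 5 stellate cell markers lay between 24.6 and 38.5 FPKM in sum with overlap of all groups, although Col1a1 rose (log2 FC 0.87, adjusted p = 0.414, limma) and Reln fell (-0.56, adjusted p = 0.423) in AF. The 4 lymphocyte markers summed to between 2.34 and 3.23 FPKM in PF, 1.21 and 1.73 FPKM in AF, and 1.57 and 1.70 FPKM in AF with MNA, and Ighm, the heavy chain of immunoglobulin M, fell in both alcohol groups (log2 FC -1.76 and -1.73, adjusted p = 0.179 and 0.152, limma). The other 3 lymphocyte markers, Cd3e, Cd79a and Ptprc, each overlapped between PF and both alcohol groups. The sums of the neutrophil and bile duct markers were at most 2.03 and 2.46 FPKM. Neutrophil sums were between 0.23 and 0.75 FPKM in PF and between 0.73 and 2.03 FPKM in AF, with S100a8 above PF in every AF library and Ly6g, which defines neutrophils, at or near 0 throughout, and the bile duct marker Sox9 was also above PF in every AF library. Of the 6 hepatocyte markers, Tat rose in AF (log2 FC 1.24, adjusted p = 0.393, limma) and none fell, with log2 FCs of -0.56 for Apoa1 and -0.64 for Ttr (adjusted p = 0.442 and 0.446). The part of these cells in the hydrolase values was not tested, and in whole liver a change in cell number cannot be told apart from a change in RNA per cell.

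Circular RNAs from these genes had few reads. Of the 39 members, 9 gave 14 circular RNAs, 12 of them circRNAs with 54 reads and 2 typed in the table as ciRNAs, from Gaa and Npc1, with 9 reads. Together they had 63 of 17959 junction reads (0.351%) over all libraries, 21 in PF, 22 in AF and 20 in AF with MNA, and 11 of the 14 had reads in a single library. Lamp2 gave 4 of them with 27 reads, and its most widespread form, 7 exons between 38424267 and 38442140 on the minus strand of chromosome X, was seen in 6 of 9 libraries with 14 reads in all. With so few reads the groups were not tested against each other.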

How the data were processed

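Ribosome-depleted, strand-specific, paired-end libraries of mouse liver were used, 3 per group, grouped by the sample labels. The members and gene lists were chosen with earlier results of these data known. The authors made the gene FPKM values with StringTie (1.3.4 in the submitters' processing notes), scaled per library and rounded to 2 decimals. The lncRNA table as deposited also holds read coverage (a signal, not scaled for depth) and CPC and CNCI scores, which were used only to describe the table. The deposited circRNA count values are raw junction reads, with a normalized signal from which library sizes were recovered assuming reads of 150 bases. The aligner's role and the genome build are not given in the sources used here, but 7708 of 7841 known lncRNA transcripts had the start and end of GENCODE M21 (GRCm38). Of 52151 entries, 26345 with a gene name and a known transcript were used, and 437 of these merge coding genes. A further 20 entries made only of assembled transcripts carry a member's name and were left out.

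For each comparison, entries whose mean reached 0.5 FPKM in its 6 libraries entered a limma fit (3.58.1, R 4.3.3) on log2(FPKM + 1), with an intensity trend, two-sided, and Benjamini-Hochberg adjustment over all tested entries. All 39 members passed this filter in all 3 comparisons. A pseudocount of 1 understates the change of low genes. The FPKM tables give no gene counts, so precision rests on the replicates. Values in every library are given for members with p under 0.05 in any comparison, the 5 members with the largest log2 FC in each, Tfeb, Tfe3 and the LC3 and GABARAP family. Of the wider lists, genes with an adjusted p under 0.05 or among the 5 lowest p-values of a comparison were open to naming. With 3 against 3, an exact permutation test of a single gene cannot go below p = 0.1 and was not used. Alternatives were another pseudocount, 2 other filters, median scaling, no trend, all 9 libraries, a replicate block, a library-size covariate without moderation and each library left out. The covariate summed log2(FPKM + 1) per library over nonzero values below their upper quartile and was not the read number. A further alternative, added after the data were seen, removed both libraries of high intron signal.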

Additional observations from a re-analysis of the deposited data

How the results depend on the processing

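No value changed sign among called results, and the class medians of the hydrolases kept their sign against PF in every alternative run, from 0.22 to 0.39 in AF and from 0.26 to 0.37 in AF with MNA with each library left out. In AF against PF, 6 members had p under 0.05, with 4 to 9 when a library was left out. There, 0 members had an adjusted p under 0.05, and this became 1 (Hexa, adjusted p = 0.0441, limma) with all 9 libraries in the fit. The membrane and pump median lay between -0.157 and 0.04425 with a library left out. In AF with MNA against AF, 3 members had p under 0.05 and 1 passed the threshold of the methods. These became 1 and 0 with the library-size covariate without moderation. They became 3 and 2 with both libraries of high intron signal removed, when Atg12 and Ulk1 passed the latter and Map1lc3a and Gabarapl1 had p above 0.05. With a library left out they became 1 to 4 and 0 to 2. The hydrolase median then lay between -0.0644 and 0.01215 and the membrane and pump median between -0.05655 and 0.103, while the autophagy median, -0.08, lay between -0.1698 and 0.01778, above 0 without AF replicate 3 and (0.01714) with both libraries of high intron signal removed. In AF against PF the autophagy median lay between 0.03739 and 0.1513. In AF with MNA against PF, 12 members had p under 0.05. This became 7 with the library-size covariate without moderation and 2 to 10 with a library left out, lowest without PF replicate 2. The 1 adjusted call became 0 with a pseudocount of 0.1, with every value above 0 kept, with median scaling, with the covariate without moderation, and with each library left out (0 to 0). The 1 member past the threshold of the methods became 2 with the covariate without moderation and 0 to 1 with a library left out, and the membrane and pump median lay between -0.0817 and 0.0598. The causes were not tested.

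With the replicate number as a block, AF with MNA against PF had 5 members with p under 0.05 in place of 12, and 0 adjusted calls in place of 1, while AF against PF had 8 in place of 6 and AF with MNA against AF had 3. Libraries of the same number did not deviate together, with correlations from -0.08 to 0.06, so the numbers are not taken as pairs. The tables give no gene counts, so how depth limits the low genes is unknown. Median scaling moved the median log2 FC of all entries in AF against PF from -0.03 to 0.01.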
